A study of Caenorhabditis elegans with 9 samples.

Results

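The cathepsin B family of *Caenorhabditis elegans* was examined here as 9 genes, *cpr-1*, *cpr-2*, *cpr-3*, *cpr-4*, *cpr-5*, *cpr-6*, *cpr-8*, F57F5.1 and F32H5.1, taken by symbol from the 46926 gene identifiers of a table of RNA-seq counts. All 9 were found, and all 9 were among the 14332 genes that passed a filter on low counts and were tested. *cpr-2* and *cpr-8* passed it only through the worms on restricted food, since their counts in fully fed worms were 0, 2 and 8 and 10, 7 and 14, too few for the filter's level of 1.04 CPM (read counts relative to the library total) in every library. A difference was thus built into the testing of these genes, and their test values are descriptions. The study measured whole adult worms of the wild-type strain N2 that differed, per the labels, only in food. All worms were hatched from eggs obtained by bleaching, were raised on HT115 control bacteria, an Escherichia coli strain, up to adult day 1 and were then kept for 24 h on plates with kanamycin, an antibiotic. During that time DR0 worms received no bacteria, DR1 worms received diluted bacteria and AL (ad libitum) worms received undiluted bacteria. There were 3 libraries per condition, and the comparisons ask which family members respond when food is diluted or withheld.

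Cathepsin B is a cysteine protease of the papain family. It is made as an inactive precursor with an amino-terminal propeptide that blocks the active site, and it becomes active after this propeptide is cut away in the acidic lysosome. An occluding loop near the active site lets cathepsin B remove dipeptides from the carboxy terminus of a protein in addition to cutting inside it. In worms the intestine is the organ of digestion, of fat and yolk production and of large lysosome-related gut granules, and cysteine proteases made there act on food in the gut lumen or on protein inside lysosomes.

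Library totals ranged between 9203611 and 12012750 counts. Levels are given as CPM after TMM scaling, a method that sets libraries to a common level using the bulk of the genes. Errors are SD over the 3 libraries of a condition, except for those of log2 fold changes, which are standard errors (s.e.). Upregulated and downregulated genes had an adjusted p under 0.05 in edgeR's quasi-likelihood test and a log2 fold change past 1 in either direction. Nothing in the sources says that libraries were made from separate cultures, and p values then cover only the spread among these libraries. The counting ignored strand, and how reads that matched more than 1 of these related genes were counted is not given in the sources used here. Levels come from whole worms, in which fewer cells of a type and less RNA per cell cannot be told apart.

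Most of the family moved with food, and its members moved in opposite directions. In DR0 against AL, 5 of the 9 genes were upregulated (*cpr-1*, *cpr-2*, *cpr-4*, *cpr-5* and *cpr-8*) and 1 was downregulated (F57F5.1), where 11.3% and 8.16% of all tested genes were upregulated and downregulated. The same 5 genes were upregulated in DR1 against AL, and 2 were downregulated (*cpr-6* and F57F5.1), where the shares over all tested genes were 10.6% and 8.62%. In both comparisons together, 5 members were upregulated in each and 1 was downregulated in each, where 7.24% and 5.85% of all tested genes were. *cpr-3* and F32H5.1 passed the test in neither comparison. With total-count scaling, *cpr-3* was higher in DR1 against AL (log2 fold change 0.30, adjusted p = 0.0248), under the fold threshold. Without the fold threshold, 5 members were higher and 2 were lower in DR0 against AL, where 29.6% and 31.0% of all tested genes were, and 5 were higher and 2 lower in DR1 against AL, where the shares were 28.5% and 31.6%. The libraries of 5 members in DR0 lay wholly above and those of 3 wholly below those of AL, against 31.7% and 32.6% of all tested genes, and those of 5 and 2 members did so in DR1, against 31.5% and 33.2%. Among the 7 members that reached the filter in every condition, 3 were upregulated and 1 was downregulated in DR0 against AL, and 3 and 2 in DR1 against AL. The median log2 fold change of these 7 was −0.07 in DR0 against AL and −0.05 in DR1 against AL, that of all 9 was 1.05 and 1.57, and that of all tested genes was 0.034 and 0.033. Both comparisons use the same 3 AL libraries.

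**Figure D1:**
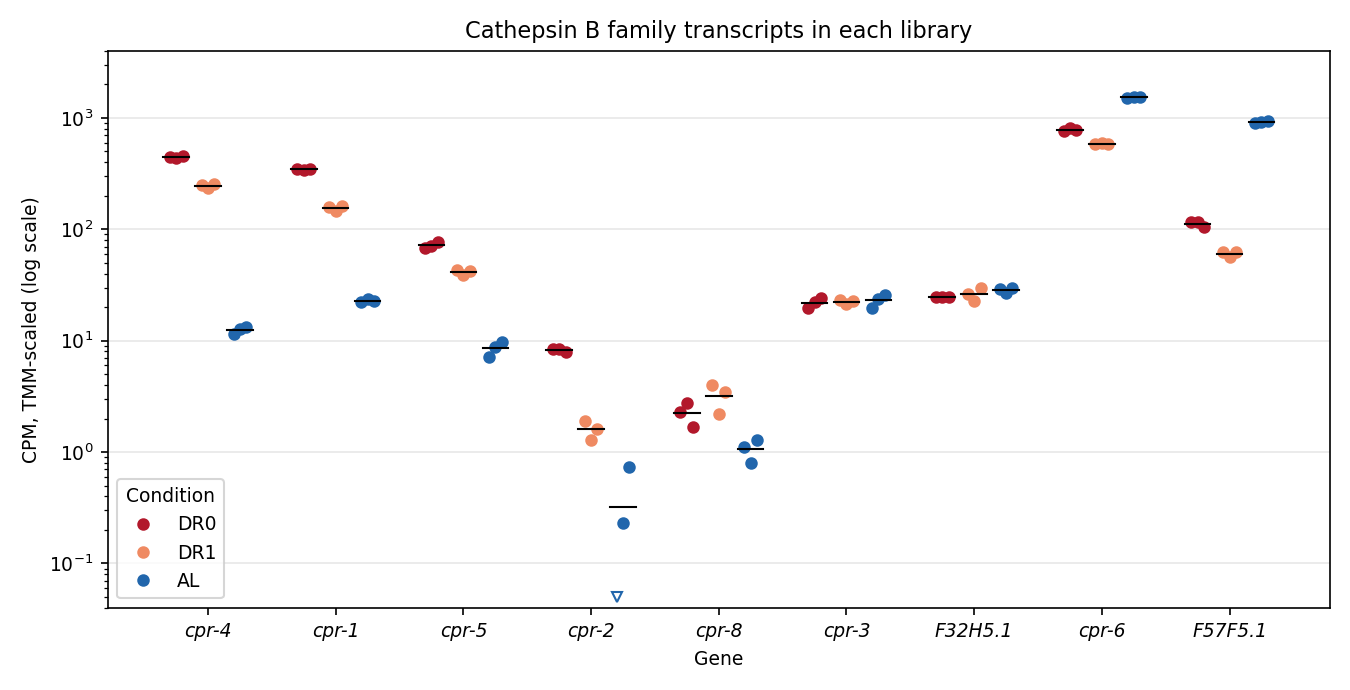
Level of each cathepsin B family gene in each library, in TMM-scaled CPM on a log axis. Points are the 3 libraries of DR0, DR1 and AL, horizontal bars are means, and the open triangle at the bottom marks the AL library in which *cpr-2* had 0 counts. The restricted libraries of *cpr-4*, *cpr-1* and *cpr-5* lie above those of AL, those of *cpr-6* and F57F5.1 lie below them, and those of *cpr-3* are mixed with them.

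The largest log2 fold change among members well above the filter was that of *cpr-4* (WBGene00000784, chromosome V from 6614674 to 6615851, plus strand), whose product is a secreted cathepsin B-like protease known for its part in radiation-induced bystander effects in worms. Its level was 441, 437 and 452 CPM in the DR0 libraries, 248, 234 and 252 CPM in the DR1 libraries, and 11.6, 12.8 and 13.2 CPM in the AL libraries. The 3 conditions formed separate bands, and the libraries of one condition lay close to each other. The log2 fold change was 5.14 (s.e. 0.062, adjusted p = 8.53e-27) in DR0 against AL, 35.4-fold, and 4.29 (s.e. 0.062, adjusted p = 2.58e-25) in DR1 against AL, 19.5-fold. A piRNA gene on the opposite strand shares 21 exon bases with *cpr-4* and had 0 counts in all 9 libraries.

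*cpr-1* (WBGene00000781, chromosome V from 11975551 to 11976756, plus strand) encodes a cysteine protease of the gut. It had 347, 342 and 349 CPM in DR0 libraries, 159, 145 and 160.1 CPM in DR1 libraries, and 22.2, 23.9 and 22.6 CPM in AL libraries. The order DR0 over DR1 over AL held without overlap. Its log2 fold change was 3.92 (s.e. 0.059, adjusted p = 6.14e-25) in DR0 against AL and 2.76 (s.e. 0.060, adjusted p = 9.57e-22) in DR1 against AL, which are 15.1-fold and 6.77-fold.

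*cpr-5* (WBGene00000785, chromosome V from 1132598 to 1134036, minus strand) is the gene whose promoter drives the study's reporter of the lysosomal surveillance response, and the study counts it, with *cpr-8*, among the worm orthologues of human cathepsin B. The DR0 libraries had 68.1, 70.6 and 76.2 CPM, the DR1 libraries 42.8, 39.1 and 41.8 CPM, and the AL libraries 7.11, 8.85 and 9.70 CPM. All 6 restricted libraries were above all 3 AL libraries. The change was 8.32-fold in DR0 against AL (log2 fold change 3.06, s.e. 0.104, adjusted p = 1.14e-17) and 4.79-fold in DR1 against AL (log2 fold change 2.26, s.e. 0.107, adjusted p = 6.48e-15).

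*cpr-2* (WBGene00000782, chromosome V from 16532936 to 16534100, minus strand) and *cpr-8* (WBGene00021070, chromosome V from 1134602 to 1139182, plus strand) rose from a very low level. *cpr-2* had 73, 76 and 80 reads in DR0 libraries, 21, 14 and 21 reads in DR1 libraries, and 0, 2 and 8 reads in AL libraries. With library size taken into account, the summed reads of DR0 were 23.6 times those of AL (95% interval 12.6 to 49.9, counting error only), and those of DR1 were 4.57 times those of AL (2.31 to 10.06). The test gave *cpr-2* a log2 fold change of 4.53 (s.e. 0.437, adjusted p = 4.46e-09) in DR0 against AL and 2.17 (s.e. 0.527, adjusted p = 0.00111) in DR1 against AL. These values depended on single AL libraries. They were 3.99 and 1.63 without AL replicate 1, which had 0 reads, and 6.04 and 3.68 without AL replicate 3, which had 8. The value of 6.04 is above that of *cpr-4*, so the order of these genes by fold change is not fixed.

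*cpr-8* was the only upregulated member with its highest mean level in DR1. Its reads numbered 20, 25 and 17 in DR0 libraries, 44, 24 and 45 in DR1 libraries, and 10, 7 and 14 in AL libraries. In CPM this was 2.31, 2.76 and 1.69 in DR0, 4.02, 2.19 and 3.43 in DR1, and 1.11, 0.804 and 1.28 in AL. Restricted libraries were thus above AL libraries, while those of DR0 and DR1 overlapped. The log2 fold change was 1.05 in DR0 against AL (s.e. 0.404, adjusted p = 0.0285) and 1.57 in DR1 against AL (s.e. 0.381, adjusted p = 0.0011). The DR0 call was lost in 6 of 18 alternatives, which were limma-voom, quantile normalisation, and leaving out DR0 replicate 1 or 2 or AL replicate 1 or 2, with adjusted p between 0.0208 and 0.221 over all 18.

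**Figure D2:**
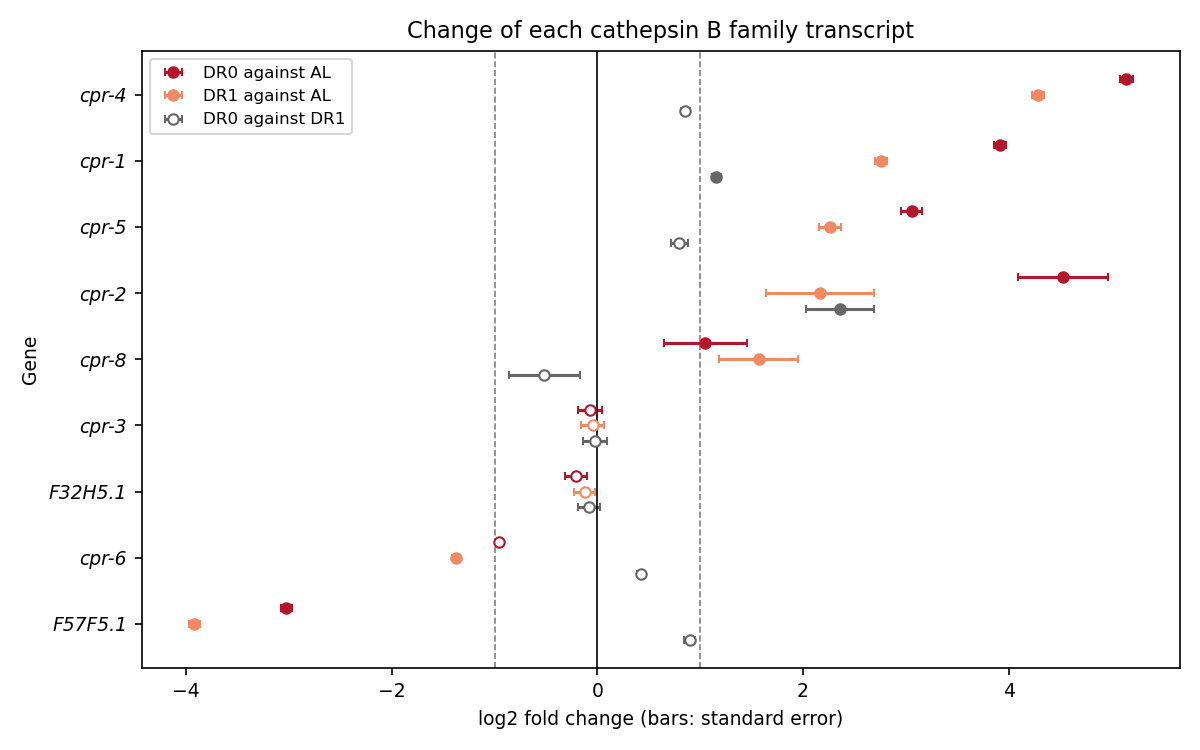
log2 fold change of each family gene in DR0 against AL, DR1 against AL and DR0 against DR1, with bars for the standard error. Filled points were called, open points were not, and dashed lines mark the fold threshold. The changes of *cpr-4* at 5.14 and 4.29 and of F57F5.1 at −3.02 and −3.92 lie at the ends of the family, and *cpr-3* and F32H5.1 lie near 0.

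In AL worms the family was led by *cpr-6* and F57F5.1, and both were lower on restricted food. *cpr-6* (WBGene00000786, chromosome X from 6607207 to 6609045, plus strand) is the only one of the 9 genes outside chromosome V. It had 769, 806 and 775 CPM in DR0 libraries, 587, 589 and 579.7 CPM in DR1 libraries, and 1508, 1533 and 1526 CPM in AL libraries. No libraries overlapped between conditions, and DR1 was the lowest. In DR0 against AL *cpr-6* was 1.94-fold lower (log2 fold change −0.96, s.e. 0.032, adjusted p = 1.06e-17), which did not reach the fold threshold. In DR1 against AL it was downregulated, 2.601-fold (log2 fold change −1.38, s.e. 0.033, adjusted p = 6.33e-21), a call lost with quantile normalisation.

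F57F5.1 (WBGene00010204, chromosome V from 12003053 to 12004584, plus strand), a cathepsin B-like gene that Ensembl release 115 names *cpr-9*, had the strongest fall. Its level was 117, 116 and 104 CPM in DR0 libraries, 62.0, 56.3 and 62.4 CPM in DR1 libraries, and 895, 916 and 929 CPM in AL libraries. As with *cpr-6*, DR0 lay between DR1, the lowest, and AL, with no overlap. It fell 8.14-fold in DR0 against AL (log2 fold change −3.02, s.e. 0.050, adjusted p = 4.67e-24) and 15.2-fold in DR1 against AL (log2 fold change −3.92, s.e. 0.053, adjusted p = 6.17e-26).

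*cpr-3* (WBGene00000783, chromosome V from 15296834 to 15298700, minus strand) had 19.8, 22.1 and 23.9 CPM in DR0, 23.2, 21.1 and 22.8 CPM in DR1, and 19.7, 23.9 and 25.6 CPM in AL. Its libraries overlapped between all conditions, and its log2 fold change was −0.07 (s.e. 0.117, adjusted p = 0.612) in DR0 against AL and −0.05 (s.e. 0.114, adjusted p = 0.738) in DR1 against AL. F32H5.1 (WBGene00009347, chromosome V from 13356083 to 13358037, minus strand) had 24.8, 24.9 and 24.5 CPM in DR0, 26.0, 22.6 and 29.8 CPM in DR1, and 29.2, 26.998 and 29.5 CPM in AL. Its DR0 libraries were all below its AL libraries, but the log2 fold change of −0.21 (s.e. 0.107) did not pass the test (adjusted p = 0.0948), nor did that of −0.13 in DR1 against AL (adjusted p = 0.308). F32H5.1 shares 86 exon bases, 7.04% of its exon length, with the potassium channel gene *twk-43* on the opposite strand, to which between 12 and 30 reads per library were counted.

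The direct comparison of DR0 with DR1 shows how the family differed between no food and little food. Of the 9 genes, 2 were upregulated in DR0, *cpr-1* and *cpr-2*, and 0 were downregulated, where 1.44% and 1.03% of all tested genes were called. *cpr-1* was 2.23-fold higher (log2 fold change 1.16, s.e. 0.047, adjusted p = 1.33e-15) and *cpr-2* was higher by 2.36 on the log2 scale (s.e. 0.328, adjusted p = 2.71e-06). *cpr-1* fell short of the fold threshold with total-count scaling and quantile normalisation, with log2 fold changes of 0.87 and 0.93.

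With no fold threshold, 6 of the 9 genes passed the test at an adjusted p under 0.05 with the higher level in DR0, and their libraries did not overlap. None of the 9 was lower with TMM, but with total-count scaling *cpr-3* (log2 fold change −0.32, adjusted p = 0.0262) and F32H5.1 (−0.38, adjusted p = 0.00485) were. Of all tested genes, 21.2% were higher and 17.8% lower by this test, and 25.3% were higher and 23.2% lower without overlap. Besides *cpr-1* and *cpr-2* these were *cpr-4* (log2 fold change 0.86, s.e. 0.044, adjusted p = 1.2e-13), *cpr-5* (0.80, s.e. 0.082, adjusted p = 2.47e-08), F57F5.1 (0.90, s.e. 0.053, adjusted p = 1.52e-12) and *cpr-6* (0.42, s.e. 0.032, adjusted p = 1.85e-10). They include members that were higher and members that were lower than in AL, so DR0 lay farther from AL than DR1 for *cpr-1*, *cpr-2*, *cpr-4* and *cpr-5* and nearer to AL for *cpr-6* and F57F5.1. *cpr-8* had a log2 fold change of −0.52 (s.e. 0.346, adjusted p = 0.259), and those of *cpr-3* and F32H5.1 were −0.02 (adjusted p = 0.895) and −0.08 (adjusted p = 0.575). The value of *cpr-6* turned to −0.02 with quantile normalisation. Total-count scaling moved the median log2 fold change of all genes by 0.35 in DR1 against AL and by −0.29 in DR0 against DR1, and the counts of all genes called upregulated and downregulated to 2896 and 755 in DR1 against AL, beside 1517 and 1235 with TMM.

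The makeup of the family changed with food. Of its summed CPM, *cpr-6* and F57F5.1 together made up 49.4% ± 0.968 in DR0, 56.7% ± 1.26 in DR1 and 96.2% ± 0.184 in AL (SD, n = 3). *cpr-1*, *cpr-2*, *cpr-4* and *cpr-5* together made up 47.9% ± 0.955 in DR0, 38.8% ± 0.898 in DR1 and 1.75% ± 0.0937 in AL. The share of *cpr-4* alone was 24.4% in DR0, 21.5% in DR1 and 0.493% in AL, and that of F57F5.1 was 6.20% in DR0, 5.28% in DR1 and 36.1% in AL. *cpr-6* kept the largest share in every condition, with 43.2% in DR0, 51.4% in DR1 and 60.1% in AL. The gain of the 4 genes was smaller in CPM than the loss of the other pair. The family summed to 1814 ± 16.5 CPM in DR0, 1139.6 ± 24.6 CPM in DR1 and 2533 ± 33.8 CPM in AL, so that the DR0 sum was 0.716 and the DR1 sum 0.450 of the AL sum. Without TMM scaling the family held 0.171% of all reads in DR0, 0.132% in DR1 and 0.231% in AL, a smaller fall in DR1. With CPM divided by exon length, the 7 members other than *cpr-6* and F57F5.1 made up 53.8% in DR0, 46.2% in DR1 and 4.15% in AL. By CPM alone they made up 50.6%, 43.3% and 3.83%. Per length, *cpr-6* and F57F5.1 held 40.8% and 5.35% in DR0, and *cpr-4*, *cpr-1* and *cpr-5* held 25.8%, 21.1% and 3.91%. By both measures the 7 members together held more in DR0 than the pair on average. By CPM the difference was small, and in DR0 replicate 2 the pair held 50.4%. These shares are a description of the chosen members and were not tested.

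**Figure D3:**
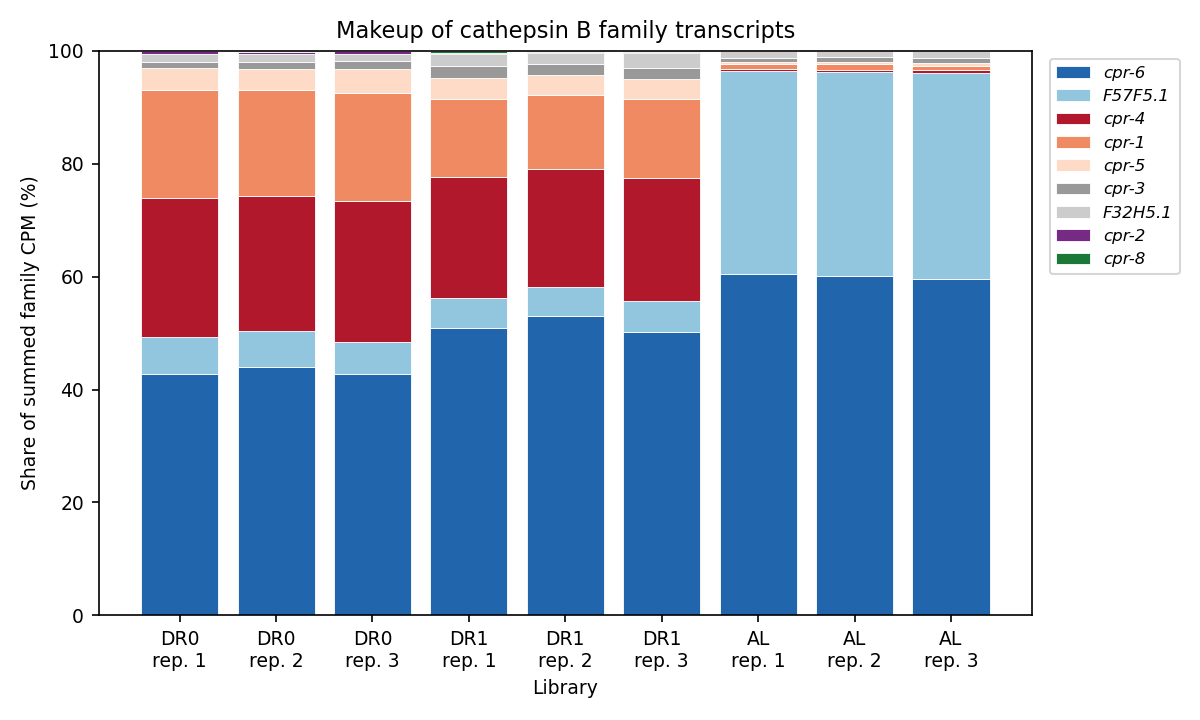
Share of each member in the summed CPM of the 9 cathepsin B family genes, in percent, in each of the 9 libraries. *cpr-6* and F57F5.1 (blue) fill 96.2% of the AL bars on average, 56.7% of the DR1 bars and 49.4% of the DR0 bars, and *cpr-4* and *cpr-1* take most of the rest in DR0 and DR1.

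Levels can be compared between genes once divided by exon length. In DR0 worms the order of CPM per kilobase of exon was *cpr-6* at 622, *cpr-4* at 393, *cpr-1* at 321, F57F5.1 at 81.4, *cpr-5* at 59.5, F32H5.1 at 20.2, *cpr-3* at 16.04, *cpr-2* at 7.75 and *cpr-8* at 2.06. DR1 worms had the same order for the first 7 genes, with *cpr-6* at 464, *cpr-4* at 217 and *cpr-1* at 144 CPM per kilobase, while *cpr-8* at 2.93 stood above *cpr-2* at 1.5002. In AL worms *cpr-6* at 1208 CPM per kilobase was followed by F57F5.1 at 662, F32H5.1 at 23.4, *cpr-1* at 21.3, *cpr-3* at 16.8, *cpr-4* at 11.1, *cpr-5* at 7.10, *cpr-8* at 0.973 and *cpr-2* at 0.301. *cpr-4* thus stood second in both restricted conditions and sixth in AL. The libraries of neighbours in these orders overlapped only for F32H5.1 and *cpr-1* in AL.

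The members are short genes with coding sequences for 326 to 379 residues and exon lengths between 1065 and 1380 bases. *cpr-4* has 2 exons, *cpr-1*, *cpr-2*, *cpr-5* and F57F5.1 have 3, and *cpr-6* has 8. On chromosome V lie 8 of the 9 genes (88.9%), against 2815 (19.6%) of the 14332 tested genes. *cpr-5* and *cpr-8* are direct neighbours on opposite strands with 565 bases between them, and on the other side of *cpr-5*, 667 bases away, lies W07B8.4, a cathepsin B-like gene that is not one of the 9 (WBGene00021072, chromosome V from 1130112 to 1131930, minus strand).

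W07B8.4 had 58, 78 and 60 reads in DR0 libraries, 47, 47 and 99 reads in DR1 libraries, and 0, 3 and 0 reads in AL libraries. It reached the low-count filter only in DR0 and DR1, so its test values are descriptions (adjusted p = 2.58e-09 in DR0 against AL and 1.06e-08 in DR1 against AL). With library size taken into account its summed reads were 67.3 times those of AL in DR0 (95% interval 22.7 to 329, counting error only) and 52.6 times in DR1 (17.7 to 257). All of its AL reads came from 1 library, and its fitted log2 fold change ranged between 4.85 and 9.20 in DR0 against AL and between 4.43 and 8.81 in DR1 against AL over the alternatives. The highest values were those without that library, when AL had 0 reads, and are no bound. Every restricted library was above every AL library for W07B8.4, *cpr-5* and *cpr-8*, of which only *cpr-5* reached the filter in AL. The protein-coding genes that flank the stretch were not called, as Y50D4B.1 had a log2 fold change of 0.53 in DR0 against AL (adjusted p = 0.112) and *cutl-22* had too few reads to be tested.

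*cpr-1* and F57F5.1 lie 26296 bases apart on the same strand with 8 protein-coding genes between them, and they moved in opposite directions. Of those 8 genes, *mif-2* (log2 fold change 0.14 in DR0 against AL), *snr-4* (0.05), *rpt-1* (−0.17), *cyl-1* (−0.12) and *gcy-33* (0.86) were not called in DR0 against AL, *mans-2* was downregulated (−1.45), C52E4.7 was upregulated (1.76) with a mean of 0.477 CPM in AL, and C52E4.12 was not tested. In DR1 against AL C52E4.7 (1.36, adjusted p = 0.0288) and *gcy-33* (1.54, adjusted p = 0.0305) were upregulated. *gcy-33* had a mean of 1.21 CPM in DR1 and 0.388 CPM in AL. *mans-2* (−0.54) and the other 4 tested genes were not called. The AL means of C52E4.7 and *gcy-33* lay under the filter's level of 1.04 CPM, so their test values in both comparisons are descriptions.

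Other papain family proteases gave the surroundings of these changes. Of 17 such genes outside the 9 members, 16 were found and 13 were tested. In DR0 against AL 1 was upregulated and 1 was downregulated, where 11.3% and 8.16% of all tested genes were. In DR1 against AL 3 were upregulated and 3 were downregulated, where the shares were 10.6% and 8.62%. The median log2 fold changes were 0.52 in DR0 and 0.57 in DR1. Of the 13, 5 did not reach the filter in AL, among them W07B8.4 and Y71H2AM.25. W07B8.4 was the only gene upregulated in DR0. In DR1 the upregulated genes were W07B8.4, Y71H2AM.25 and *cpz-2*, of which only *cpz-2* reached the filter in AL. Called in both comparisons were W07B8.4 and Y40H7A.10, which had 22.9, 21.7 and 23.7 CPM in DR0, 26.9, 26.0 and 26.8 CPM in DR1, and 143, 145 and 151 CPM in AL. Its fall was 6.42-fold in DR0 (log2 fold change −2.68, s.e. 0.068, adjusted p = 3.27e-20) and 5.51-fold in DR1 (log2 fold change −2.46, s.e. 0.065, adjusted p = 5.51e-20). Between DR0 and DR1, 0 of the 13 were called, where 1.44% of all tested genes were upregulated and 1.03% downregulated. At an adjusted p under 0.05 alone, 2 were higher and 5 lower in DR0, where 21.2% and 17.8% of all tested genes were. DESeq2 called 1, Y71H2AM.25, downregulated.

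The genes of the other main cathepsins of this family are named here after their values were seen. *cpl-1*, which encodes cathepsin L, had 1191 ± 25.6 CPM in DR0, 773 ± 18.6 CPM in DR1 and 2083 ± 17.8 CPM in AL, with log2 fold changes of −0.81 (adjusted p = 1.23e-16) in DR0 against AL and −1.43 (adjusted p = 1.12e-21) in DR1 against AL. *cpz-1*, which encodes cathepsin Z, had 356 ± 1.74 CPM in DR0, 231 ± 8.29 CPM in DR1 and 560.4 ± 9.73 CPM in AL, with log2 fold changes of −0.66 and −1.28. The DR1 call was lost with quantile normalisation for *cpl-1* (−0.81) and *cpz-1* (−0.86), and with total-count scaling for *cpz-1* (−0.93). These 2 genes were, as *cpr-6*, lowest in DR1. *cpz-2*, the second cathepsin Z gene, and *tag-196*, which encodes cathepsin F, were highest in DR1. *cpz-2* had log2 fold changes of 0.60 in DR0 against AL and 1.00 in DR1 against AL, and the call in DR1 was lost to the fold threshold in 8 of 19 alternatives. *tag-196* had log2 fold changes of 0.52 in DR0 against AL and 0.94 in DR1 against AL, and the DR1 value passed the fold threshold in 3 of 19 alternatives. Y71H2AM.25 was upregulated in DR1 against AL, at 3.84 ± 1.14 CPM in DR1 and 1.04 ± 0.551 CPM in AL (log2 fold change 1.83, adjusted p = 0.000333). It reached the low-count filter only in DR0 and DR1, so its test values against AL are descriptions.

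**Figure D4:**
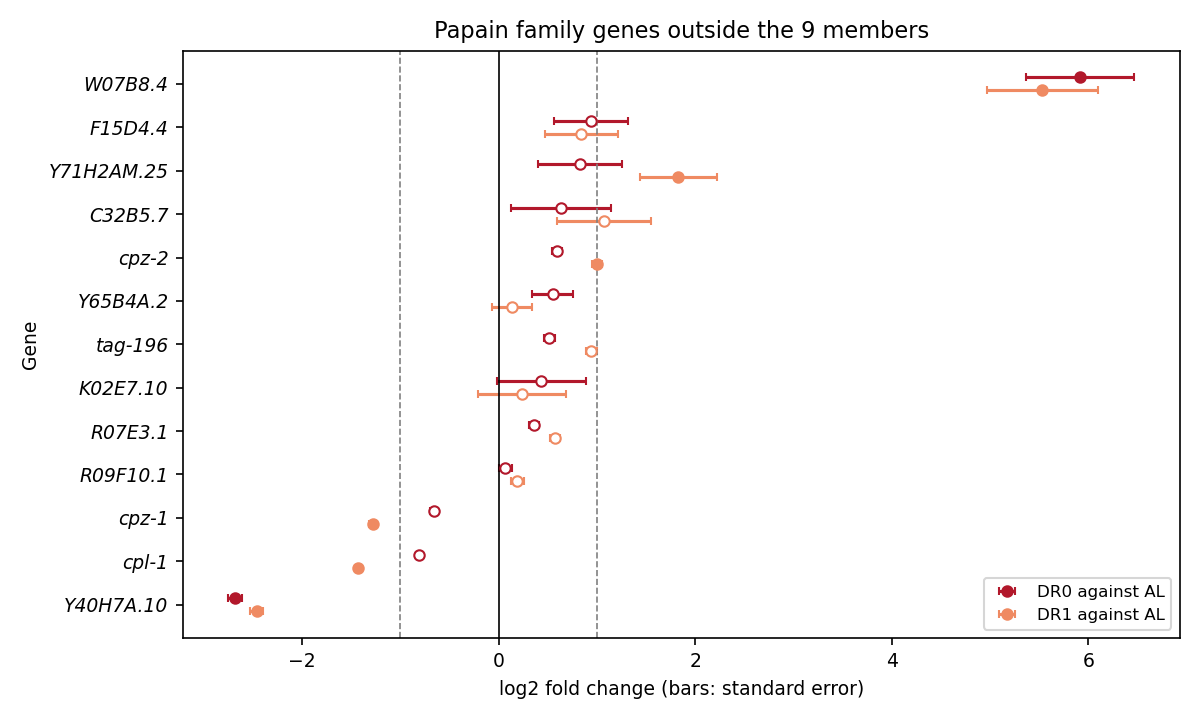
log2 fold change in DR0 against AL and in DR1 against AL of the 13 tested papain family genes outside the 9 members, with bars for the standard error. Filled points were called, open points were not, and dashed lines mark the fold threshold. W07B8.4, whose position rests on 3 AL reads, and Y40H7A.10 are filled in both comparisons, at 5.92 and 5.53 and at −2.68 and −2.46.

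Cystatins are inhibitors that block the active site of papain family proteases, and worms have genes for a pair of them. *cpi-1* had 296, 292 and 289 CPM in DR0, 276, 322 and 252 CPM in DR1, and 509.9, 593 and 521 CPM in AL. It was lower on restricted food, by 1.85-fold in DR0 against AL (log2 fold change −0.89, s.e. 0.065, adjusted p = 3.67e-11) and by 1.91-fold in DR1 against AL (log2 fold change −0.94, s.e. 0.065, adjusted p = 1.04e-11), under the fold threshold in both, although without DR1 replicate 2 the DR1 value was −1.03 and was called. *cpi-2* had 372, 353 and 387 CPM in DR0, 246, 256 and 244 CPM in DR1, and 288, 286 and 282 CPM in AL. It was 1.30-fold higher in DR0 against AL (log2 fold change 0.38, adjusted p = 8.06e-08) and lower by 0.20 on the log2 scale in DR1 against AL (adjusted p = 0.000429), where its direction turned with total-count scaling and quantile normalisation.

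Among the factors that act on intestinal and lysosomal genes, 7 were followed and 1 was upregulated in each comparison with AL. Of all tested genes, 11.3% were upregulated in DR0 against AL and 10.6% in DR1 against AL. *elt-2*, the GATA factor of the intestine that the study ties to the lysosomal surveillance response, had 22.6, 27.4 and 24.8 CPM in DR0, 24.8, 23.7 and 23.6 CPM in DR1, and 23.4, 26.7 and 21.4 CPM in AL. Its libraries overlapped between conditions, and the log2 fold change was 0.07 in DR0 against AL (s.e. 0.1104, adjusted p = 0.598) and 0.02 in DR1 against AL (s.e. 0.108, adjusted p = 0.903). This depended on the processing. Over the alternatives the DR1 value ranged between −0.0602 and 0.364, with a lowest adjusted p of 0.0053. The DR0 value ranged between −0.0063 and 0.22, with a lowest adjusted p of 0.0862. By quantitative PCR of worms fed in these ways, the paper reports a significant *elt-2* difference from AL in both DR0 and DR1. It rests the role of ELT-2 on depletion of the factor, also done under dietary restriction, and on its binding to promoters. That binding was measured in worms with *vha-6* knockdown and not under restriction. *hlh-30*, the worm TFEB gene, had 143 ± 1.61 CPM in DR0, 118 ± 5.16 CPM in DR1 and 75.5 ± 3.08 CPM in AL, 1.89-fold and 1.57-fold higher than in AL and under the fold threshold, which the DR0 value passed with quantile normalisation (1.03). *pqm-1*, a zinc finger factor gene, was the upregulated one, with 108 ± 2.07 CPM in DR0, 81.3 ± 5.35 CPM in DR1 and 37.2 ± 2.06 CPM in AL (log2 fold changes 1.54 and 1.13). *pha-4*, the FoxA gene, had log2 fold changes of 0.11 (adjusted p = 0.353) and 0.19 (adjusted p = 0.0813). Over the alternatives these reached 0.28 in DR0 and 0.54 in DR1, and the lowest adjusted p was 0.0168 in DR0 and 2.53e-05 in DR1. The other 3, named after their values were seen, were under the fold threshold. *elt-7*, another intestinal GATA factor gene, was higher in DR0 (log2 fold change 0.61, adjusted p = 0.000258) and in DR1 (0.42, adjusted p = 0.00603). *daf-16*, the FoxO gene, had 0.40 in DR0 (adjusted p = 6.44e-05) and −0.16 in DR1 (adjusted p = 0.0772), and *cbp-1*, a histone acetyltransferase gene, had −0.17 in DR0 (adjusted p = 0.015) and 0.33 in DR1 (adjusted p = 1.57e-05).

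The genes whose pattern over the 9 libraries was most like that of a member were found by Pearson's r of log2 CPM among genes called in the same directions. The libraries form 3 conditions, so r mostly follows the 3 condition means, and it is given as a description. Nearest to *cpr-4* were *pck-2*, a phosphoenolpyruvate carboxykinase gene (r = 0.9998), *icl-1*, the gene of the glyoxylate cycle enzyme (r = 0.99937), and T12D8.5 (r = 0.99858), of 269 candidates. In level they differed, since *pck-2* averaged 2009.6 CPM in DR0, 1569 CPM in DR1 and 467 CPM in AL, and T12D8.5 averaged 644 CPM in DR0, 373 CPM in DR1 and 17.4 CPM in AL. Nearest to *cpr-5* were *acer-1* (r = 0.99643), C07E3.3 (r = 0.99625) and C01G12.3 (r = 0.99547). Nearest to F57F5.1, of 489 candidates, were F35E12.6 (r = 0.99936), the aspartyl protease gene *asp-14* (r = 0.99926) and Y34B4A.6 (r = 0.99923). *asp-14* averaged 69.9 CPM in DR0, 39.7 CPM in DR1 and 452 CPM in AL, the order seen for F57F5.1.

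Cell type markers moved between the conditions as well. Of 8 intestinal marker genes, 1 was upregulated (*ifp-1*) and 4 were downregulated (*ifb-2*, *ifc-2*, *act-5* and *vha-6*) in each comparison with AL. Of all tested genes, 11.3% and 8.16% were in DR0 and 10.6% and 8.62% in DR1. Without the fold threshold 3 were higher, among them *ges-1* and *elt-7*, and 4 lower in each comparison. The shares over all tested genes were 29.6% and 31.0% in DR0 and 28.5% and 31.6% in DR1. *ges-1* had log2 fold changes of 0.73 (adjusted p = 1.41e-06) and 0.999 (adjusted p = 5.39e-09), and *elt-2* passed the test in neither. The 8 genes summed to between 687 and 711 CPM in DR0, 518 and 559 CPM in DR1, and 1658 and 1686 CPM in AL. *act-5* averaged 303, 205 and 922 CPM in DR0, DR1 and AL. *ifp-1* reached the low-count filter only in DR0 and DR1. None of these 8 was at 0 in a library. The 7 oocyte and germ line markers summed to between 2236 and 2280 CPM in DR0, 1013 and 1081 CPM in DR1, and 3385 and 3462 CPM in AL. Of these, 1 in DR0 and 7 in DR1 were downregulated against AL, where 8.16% and 8.62% of all tested genes were. Both sums were lowest in DR1, as were *cpr-6* and F57F5.1, while *cpr-1*, *cpr-2*, *cpr-4* and *cpr-5* were lowest in AL. The sum of body wall muscle markers was lowest in DR1 too. It lay between 462 and 511 CPM in DR1, 835 and 852 CPM in AL, and 1019 and 1038 CPM in DR0. The part of these cell types in the changes of the family was not tested.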

How the data were processed

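Whole adult N2 worms of DR0, DR1 and AL were sequenced, with 3 libraries each. The table that the authors deposited holds raw read counts for each gene. According to the methods of the paper, low-quality reads were removed after inspection in FastQC, STAR aligned the rest to WBcel235 (annotation of Ensembl release 89), and htseq-count assigned them to exons without regard to strand. The submitters' notes name another STAR version (2.73a) and edgeR 3.24.3, and the paper and the notes name different sequencers. Totals ranged between 9203611 and 12012750 counts per library. All libraries were used.

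Counts were tested with edgeR 4.0.16 in R 4.3.3 (filterByExpr, TMM, glmQLFit and glmQLFTest, 1 mean per condition over all 9 libraries). Adjusted p values are Benjamini–Hochberg over 14332 genes, and the thresholds on p and fold are those of the paper. Each s.e. was derived from the test as |log2 fold change| over the root of its F statistic. The common biological CV was 6.59%. Intervals of count ratios are exact, at 95%, and cover counting error only. Positions are from Ensembl release 115 (WBcel235).

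The members and lists were chosen with earlier results of these data known. Named were the 9 members, the 3 genes most like each of *cpr-4*, *cpr-5* and F57F5.1 in Pearson's r (mean CPM of at least 10, log2 of CPM plus 0.5, calls in the same directions), W07B8.4, the papain family genes with the largest changes among those called against AL in both DR0 and DR1, both cystatins, and *elt-2*, *hlh-30*, *pha-4* and *pqm-1*. Neighbouring genes and marker genes were also named by position or list. C50F4.3 was not found in the table. The active site of the listed proteases was not checked.

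Markers of body wall muscle summed to between 1019 and 1038 CPM in DR0, 462 and 511 CPM in DR1, and 835 and 852 CPM in AL. Those of pharynx summed to between 47.2 and 51.9 CPM in DR0, 33.6 and 40.5 CPM in DR1, and 35.2 and 40.9 CPM in AL, and those of neurons to between 496 and 513 CPM in DR0, 361 and 373 CPM in DR1, and 361 and 382 CPM in AL. Of 4 epidermal markers, *col-19* made up nearly the whole sum, with means of 37.7 CPM in DR0, 33.4 CPM in DR1 and 1039.9 CPM in AL, while *dpy-7* was higher on restricted food, with means of 11.0 CPM in DR0, 8.17 CPM in DR1 and 6.00 CPM in AL (adjusted p = 0.000258 in DR0 against AL and 0.046 in DR1 against AL), and *bli-1* and *rol-6* were not tested.

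Alternatives were limma-voom (limma 3.58.1), DESeq2 1.42.0, scaling by RLE, by total count or by quantiles, omission of the filter or a minimum mean CPM of 1 or 5, omission of single libraries, a block for replicate number, fits restricted to the conditions compared, and omission of the fold threshold. Figures were made with Python 3.11.15 and matplotlib 3.10.9.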

Additional observations from a re-analysis of the deposited data

How the results depend on the processing

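Over all alternatives, 487 fold changes of members kept their direction and their call, 9 lost the call and 11 changed sign, none of them a called change. Of the 487, only *cpr-3* and F32H5.1 in DR0 against DR1 crossed the p threshold, with total-count scaling (−0.32 and −0.38). With total-count scaling, *cpr-3* (0.30), F32H5.1 (0.22) and *cpi-2* (0.15) turned in DR1 against AL, and *cpr-3* then passed the p threshold (adjusted p = 0.0248). In DR0 against DR1, *cpi-1* (−0.24), *elt-2* (−0.24) and *hlh-30* (−0.020) turned with this scaling. With quantile normalisation, *cpr-3* turned in DR0 (0.063) and DR1 (0.084) against AL, F32H5.1 in DR1 against AL (0.014), *cpr-6* (−0.021) and *cpi-1* (−0.25) in DR0 against DR1, and *cpi-2* in DR1 against AL (0.10), and *cpr-6* in DR1 against AL lost its call (−0.77). *cpr-3* in DR1 against AL was 0.056 with a mean CPM of at least 5. With 1 library left out, the values that turned ranged between −0.179 and 0.0137 for *cpr-3* in DR0 against AL, −0.156 and 0.0386 in DR1 against AL and −0.0893 and 0.0439 in DR0 against DR1, between −0.181 and 0.0236 for F32H5.1, −0.0325 and 0.149 for *cpi-1* and −0.147 and 0.00044 for *pha-4* in DR0 against DR1, and, for *elt-2*, between −0.0063 and 0.15 in DR0 against AL, −0.0602 and 0.0947 in DR1 against AL and −0.0164 and 0.12 in DR0 against DR1.

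With 1 library left out, upregulated members ranged between 4 and 5 and other papain family genes between 1 and 2 in DR0 against AL, and between 0 and 1 papain family genes were downregulated in DR0 against DR1. A mean CPM of at least 5 left 3 upregulated members against AL in DR0 and in DR1 and 1 in DR0 against DR1, and 0 upregulated papain family genes in DR0 against AL, because *cpr-2*, *cpr-8* or W07B8.4 were then not tested. Over all genes it gave 806 upregulated and 719 downregulated in DR0 against AL, 787 and 805 in DR1 against AL, and 123 and 66 in DR0 against DR1. Adjusted p alone gave 4237 and 4446, 4078 and 4530, and 3035 and 2557 in the same order. For members it gave 2 lower in DR0 against AL and 6 higher in DR0 against DR1, and for papain family genes 6 higher and 3 lower in DR0 against AL, 6 higher in DR1 against AL, and 2 higher and 5 lower in DR0 against DR1. Total-count scaling gave 2896 and 755 in DR1 against AL, 57 and 604 in DR0 against DR1, 1 upregulated member in DR0 against DR1 and 6 upregulated papain family genes in DR1 against AL. Quantile normalisation gave 1 downregulated member and 1 downregulated papain family gene in DR1 against AL and 1 upregulated member in DR0 against DR1. DESeq2, RLE and total-count scaling, a mean CPM of at least 1 and fits of only the compared conditions called 1 papain family gene downregulated in DR0 against DR1. The causes were not tested.

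No clear effect shared by same-numbered libraries was seen. Their deviations correlated between −0.017 and 0.078, and those of others between −0.071 and 0.058. This cannot show whether same-numbered libraries were made together. With the replicate block the counts of members called stayed at 5 upregulated and 1 downregulated in DR0 against AL, 5 and 2 in DR1 against AL, and 2 and 0 in DR0 against DR1. Depth limits *cpr-2*, *cpr-8* and W07B8.4, with at most 14 reads per AL library.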
